A study of Mus musculus with 17 samples.

Results

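Acetylation of lysine 27 on histone H3 (H3K27ac) is found at promoters and enhancers in use. The mark is written by acetyltransferases and removed by deacetylases. BRG1 is the motor subunit of SWI/SNF remodelling complexes. SWI/SNF slides and evicts nucleosomes and is known to be needed in the male germ line for progress through meiosis. The H3K27ac regions described here were called higher in cells with Brg1 deleted and lie close to H3K27ac that was called common to both genotypes. They were chosen by 2 measured properties: the authors' call of a gain in Brg1cKO cells, and an edge-to-edge gap of 10 kb or less to the nearest common region, on chromosomes 1 to 19. Of the 955 gained regions on these chromosomes, 692 met the limit, out of 171905 H3K27ac regions in the 3 deposited classes on all chromosomes. Common regions are called stable here, as a short name for the authors' class.

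The study holds 17 sequenced libraries, from chromatin immunoprecipitation (ChIP-seq) or its input. The chromatin came from mouse spermatogenic cells, obtained by digesting testes and filtering the suspension. H3K27ac was mapped at postnatal day 12 (P12) in 2 Brg1WT and 2 Brg1cKO libraries of mixed strain background, with 1 input. In Brg1cKO mice Brg1 was deleted conditionally with Mvh-cre, a Cre active in germ cells, so other cells of the suspension would keep the gene. BRG1 was mapped in wild type CD1 mice at P12 and at postnatal day 18 (P18), with 2 ChIP libraries at each age. The chromatin was cut with micrococcal nuclease, which leaves fragments of nucleosome size. The H3K27ac comparison and the BRG1 maps therefore come from different mice and different libraries. Whether a gain reflects more cells with the mark or more mark per cell cannot be told apart in bulk chromatin.

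Each class was deposited as 1 list for both libraries of a genotype, so no region carries a value per library or an error between replicates. The lists do not show how deeply each library was read. The names of the regions carry the mark ko1 in the gained list, wt1 in the lost list and wt2_ko2 in the common list, and the BRG1 peak names carry P12B1 or P18B2. What these marks count is not given in the sources. The lists hold no expression values, so the labelled cell type was not checked against markers. Regions are named by coordinates in build mm9, counted from 1, and their genes and sequences were not analysed here. Regions are not replicates of a genotype, so shares are given with exact (Clopper-Pearson) 95% intervals that cover counting error only, and no test was made. 3 sets stand beside the gained regions near stable ones: the 263 gained regions beyond 10 kb, the 627 lost regions within 10 kb of a stable region, and all 167381 stable regions on the same chromosomes. Gained and lost regions come from 1 contrast and share their libraries.

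Most gained regions lay near stable acetylation. The 692 made up 72.5% (95% interval 69.5 to 75.3) of the gained regions on chromosomes 1 to 19. By the same rule, 627 of 768 lost regions (81.6%, 78.7 to 84.3) lay within 10 kb of a stable region, and 86.1% of stable regions had another stable region that close. Gained calls made up 0.565% and lost calls 0.454% of the 169104 regions in the 3 classes on these chromosomes. Both the call and the gap entered the choice of regions, so these values describe the set and support nothing.

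The gap to the nearest stable region ran from 19 to 9948 bp, with a median of 2419 bp (2115 to 2636). The middle 50% of regions had gaps of 929.5 to 4884 bp. Of the 692 regions, 182 lay within 1 kb, 310 within 2 kb and 535 within 5 kb. None touched a stable region. Lost regions near stable ones had a median gap of 2212 bp (1939 to 2576), with 180 of 627 within 1 kb. Closer in, the lists looked less alike: 3 gained and 18 lost regions lay within 50 bp of a stable region, and 13 gained and 32 lost regions within 100 bp.

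The smallest gaps belonged to regions that almost adjoined stable acetylation. The closest was chr18:38546443-38546716, 274 bp wide and 19 bp from the stable region chr18:38546153-38546423. The next were chr17:12316889-12317081 and chr17:47996410-47996607, each 29 bp away. The fourth was chr2:164658779-164658800, 22 bp wide, 51 bp from a stable region of 21 bp. The fifth was chr10:58791245-58791451, 58 bp away. All 5 had stable regions on both sides within 2 kb, with the farther one 773 to 1589 bp away. They thus lay at 1 edge of a break between stable regions and did not fill it.

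At the other end of the range, the regions just inside the limit were chr6:30620373-30620450 with a gap of 9948 bp, chr19:29978001-29978134 with 9891 bp and chr3:94302945-94303144 with 9864 bp. The gained regions just outside it were chr11:66208186-66208355 with 10095 bp, chr2:142953239-142953309 with 10118 bp and chr2:77569663-77569845 with 10139 bp. Regions on both sides of the limit were of like width, 78 to 200 bp inside and 71 to 183 bp outside. The limit cuts through a continuous range of gaps.

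Counts by gap depend on how much sequence lies at each distance, so they were set against the length of sequence between stable regions. By their centres, gained regions had a density of 0.649 per Mb (Poisson 95% interval 0.556 to 0.753) within 1 kb of a stable region. The density was 0.668 per Mb (0.557 to 0.794) at 1 to 2 kb and 0.595 per Mb (0.519 to 0.678) at 2 to 5 kb. It was 0.483 per Mb (0.413 to 0.562) at 5 to 10 kb. Beyond the limit it was 0.357 per Mb (0.296 to 0.425) at 10 to 20 kb and 0.234 per Mb (0.189 to 0.288) at 20 to 50 kb. The density was thus about level over the first 2 kb and lower farther out. Lost regions had 0.623 per Mb within 1 kb, 0.402 at 5 to 10 kb, and 0.183 (0.1404 to 0.2337) at 10 to 20 kb. At 10 to 20 kb, the interval for gained regions lay above that for lost ones, and within 10 kb the intervals of both classes overlapped at each distance.

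**Figure D1:**
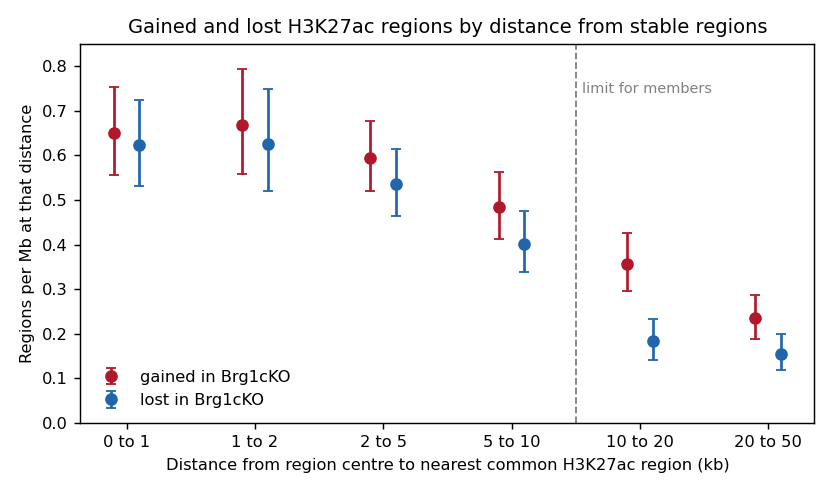
Regions per Mb of sequence between stable H3K27ac regions (vertical axis), by distance from a region's centre to the nearest stable region in kb (horizontal axis), for gained (red) and lost (blue) regions on chromosomes 1 to 19. Points are densities and bars Poisson 95% intervals; gained regions run from 0.649 per Mb within 1 kb to 0.234 per Mb at 20 to 50 kb.

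The gained regions often sat between stable ones. A stable region lay within 10 kb on both sides of 371 of the 692 (53.6%, 49.8 to 57.4), and of 342 of 627 lost regions (54.55%, 50.55 to 58.49). For these 371, the distance between the flanking stable regions had a median of 7434 bp (6842 to 7972), and for the 342 lost regions 7060.5 bp (6264 to 7697). Over the genome, the 167362 intervals between neighbouring stable regions had a median length of 3998 bp. That median counts each interval once, while a longer interval has more room for a region, so it is not a like comparison. Intervals of 5 kb or less held 7.03% of the length between stable regions and 114 of the gained regions (16.5%). Intervals of 5 to 10 kb held 8.23% of the length and 147 (21.2%), and those of 10 to 20 kb 13.1% and 219 (31.6%). The longest intervals, over 20 kb, held 71.6% of the length and 212 (30.6%). Most of that length lies beyond 10 kb from any stable region and could hold no chosen region. It counts in the total length, so the length shares of the shorter intervals are low beside their shares of regions. Lost regions near stable ones had 17.4%, 23.8%, 29.5% and 29.35% in these classes, in the same order. Within their interval, the 371 sat at a median of 28.5% (25.4 to 30.4) of the free distance from the nearer stable region, against 28.9% (26.4 to 32.3) for lost regions. The nearer stable region was on the left for 340 regions and on the right for the others.

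The stable neighbours were about as wide as stable regions at large. Their median width was 270.5 bp (260 to 280), against 271 bp for all stable regions and 270 bp for the neighbours of lost regions. The 692 regions had 686 different nearest stable regions, and 12 regions shared theirs with another. Within 50 kb, a gained region near stable acetylation had a median of 12 stable regions (11 to 12, range 1 to 53), a lost one 13 (12 to 14) and a gained region beyond the limit 2 (2 to 3). The first and last of these differ partly by the rule itself. The most densely surrounded was chr17:49639914-49639993, with 53 stable regions within 50 kb, 1024 bp from the nearest one and 7.24 kb from a P12 BRG1 peak.

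Few gained regions lay close to another of the set, although the share within 10 kb was above that of stable regions. Another region of the set lay within 10 kb of 16 of the 692 (2.31%) and within 200 kb of 139 (20.1%). Of all stable regions, 1.28% had any gained region within 10 kb, a lower share than the 2.31% in the set. The difference was not tested. Only 7 intervals between stable regions held more than 1 of them. The tightest run of 3 spanned 149.3 kb at chr17:75427160-75576504, and its members had 3 different stable neighbours. The next runs spanned 238.7 kb at chr7:31708866-31947573 and 274.7 kb at chr18:4788772-5063511, again with 3 different neighbours each. The pairs closest together were named after their values were seen. On chromosome 12, chr12:114120130-114120275 and chr12:114120465-114120477 carried the same name in the deposited list. On chromosome 8, chr8:90783740-90783797 lay beside a region of 1 bp at position 90784011. Per 1000 stable regions, the chromosomes held between 3.13 gained regions (1.79 to 5.08, Poisson interval) on chromosome 19 and 5.196 (3.453 to 7.509) on chromosome 16. The mean of 4.13 lay within the interval of all 19 chromosomes.

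Few gained regions had a lost region nearby, in shares whose intervals held those of stable regions. A lost region lay within 10 kb of 4 gained regions (0.578%, 0.158 to 1.47) and within 50 kb of 28 (4.046%, 2.705 to 5.795). For stable regions these shares were 1.177% and 5.66%, both inside the intervals for gained regions. The closest pair was chr13:28774428-28774468, gained, and chr13:28772021-28772328, lost, 2.10 kb apart. The next were chr2:71190957-71191036, 7.35 kb from the lost region chr2:71198384-71198594, and chr11:80505667-80505799, 8.95 kb from chr11:80514754-80514972. The fourth, named after its value was seen, was chr13:12153098-12153118, 9.62 kb from chr13:12143326-12143482. Of the stable regions, 2139 (1.28%) had a gained region within 10 kb, 1970 a lost one, and 8 had both.

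Width came from the same calls as the choice of regions and is a description. The 692 had a median width of 152 bp (145 to 166), with the middle 50% between 80 and 206 bp, and covered 101.6 kb in all. Gained regions beyond 10 kb had a median of 141 bp (128 to 153) and lost regions near stable ones 145 bp (130 to 154), while stable regions had 271 bp. Of the 692, 104 (15.0%, 12.5 to 17.9) were narrower than 50 bp, against 1.11% of stable regions. Widths from 200 to just under 250 bp were the most frequent 50 bp class in the set, with 164 regions (23.7%). Only 13 regions (1.88%) were wider than 300 bp, against 40.7% of stable regions.

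**Figure D2:**
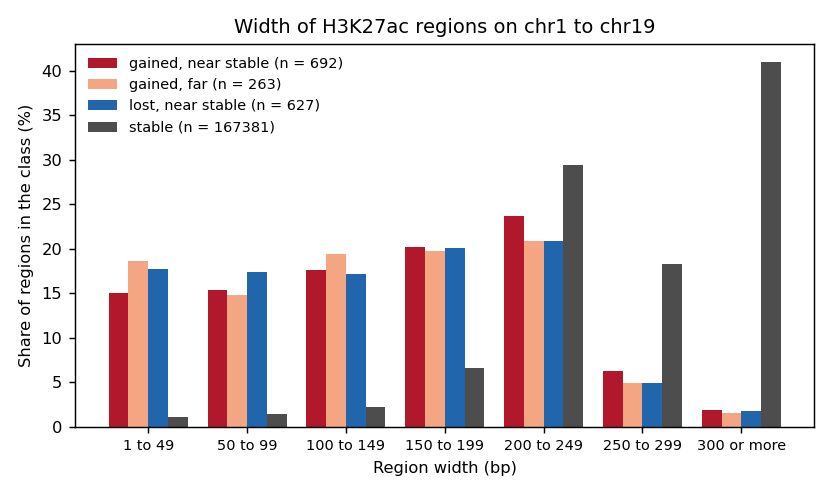
Share of regions in a class (vertical axis, percent) by region width in bp (horizontal axis) for gained regions near stable ones, gained regions farther away, lost regions near stable ones, and stable regions. Gained and lost bars run close together, with 15.0% of gained regions near stable ones under 50 bp, while stable regions are mostly 200 bp or wider.

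The 5 widest were 319 to 337 bp. The widest, chr18:58763493-58763829, lay 8.21 kb from its stable neighbour and 55.0 kb from a P12 BRG1 peak that was also found at P18. Both chr15:95201153-95201481 and chr8:85846238-85846566 measured 329 bp, and their nearest P12 peaks were 157 and 9.29 kb away. The remaining pair were chr4:126010235-126010555, with BRG1 at 11.1 kb, and chr1:167898403-167898721, with BRG1 at 32.6 kb. None of the 5 overlapped BRG1.

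BRG1 was measured in other libraries and did not enter the choice of regions by its own value, although it often lies on stable H3K27ac, which did. 58.8% (58.1 to 59.6) of P12 BRG1 peaks on chromosomes 1 to 19 overlapped a stable region. Of the 692 gained regions, 12 (1.73%, 0.899 to 3.01) overlapped a P12 peak, 29 (4.19%, 2.82 to 5.96) lay within 1 kb and 191 (27.6%, 24.3 to 31.1) within 10 kb of one. The median gap to a P12 peak was 30080 bp (26242 to 35603). Among the 263 gained regions beyond the limit, 1 overlapped a P12 peak and 5 (1.90%, 0.620 to 4.38) lay within 10 kb. Their median gap was 115325 bp (93666 to 144129). The rule itself keeps regions beyond the limit away from peaks on stable regions, so these values were partly set by it. Among stable regions, 9.06% (8.92 to 9.20) overlapped a P12 peak and 36.55% (36.32 to 36.78) lay within 10 kb. Stable regions were wider, with a median of 271 bp against 152 bp, and those of at least 300 bp overlapped a P12 peak in 14.9%. The overlap shares of gained and stable regions were not compared at like width.

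Lost regions chosen by the same gap had higher shares with P12 BRG1 within 1 and 10 kb, with overlapping intervals. A P12 peak was overlapped by 8 of 627 (1.276%, 0.5524 to 2.499), lay within 1 kb of 48 (7.656%, 5.698 to 10.02) and within 10 kb of 189 (30.1%, 26.6 to 33.9). The intervals of gained and lost regions also overlapped for direct overlap. No test of the difference was made, because regions share chromatin, libraries and 1 contrast.

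**Figure D3:**
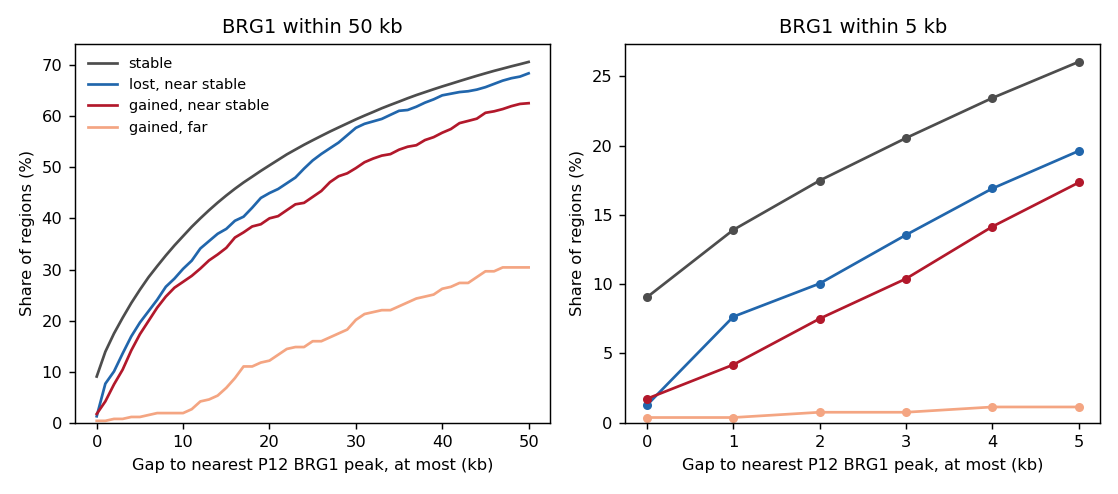
Cumulative share of regions (vertical axis, percent) with a P12 BRG1 peak at or within a given gap in kb (horizontal axis), up to 50 kb on the left and up to 5 kb on the right, for the 4 classes; the value at 0 is overlap. Gained regions near stable ones (red) run below lost ones (blue) from 1 kb outwards. They run far above gained regions beyond the limit, which reach 1.90% at 10 kb against 27.6%. This last difference is partly set by the rule, which keeps regions beyond the limit away from peaks on stable regions.

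Split by the gap to stable acetylation, BRG1 within 1 kb was counted more often beside lost regions at gaps up to 5 kb. Among regions within 1 kb of a stable region, 16 of 182 gained (8.79%, 5.11 to 13.9) and 34 of 180 lost regions (18.89%, 13.45 to 25.38) had a P12 peak within 1 kb. At a gap of 1 to 2 kb the counts were 3 of 128 gained and 7 of 115 lost, and at 2 to 5 kb 2 of 225 gained and 6 of 195 lost. At 5 to 10 kb the order was the other way, with 8 of 157 gained (5.096%, 2.225 to 9.793) and 1 of 137 lost regions (0.7299%, 0.01848 to 4). Intervals of gained and lost regions overlapped at all 4 gap classes. The 2 gained regions at 2 to 5 kb, named after their values were seen, were chr11:52579838-52580035 and chr5:33447044-33447072, which lay 0.856 and 0.050 kb from P12 peaks off stable acetylation.

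The stable neighbour itself could carry BRG1. The nearest stable region overlapped a P12 peak for 43 of the 692 gained regions (6.21%, 4.53 to 8.28) and for 59 of the 627 lost regions (9.41%, 7.24 to 11.97), against 9.06% of all stable regions. The interval for gained regions lay below the share of all stable regions, and that for lost regions held it. This did not hold when stable regions were limited to at least 300 bp: the gained set then had 64 of 464 (13.79%, 10.79 to 17.27) and the lost set 71 of 431 (16.47%, 13.1 to 20.32). All stable regions of that width had 14.93%, inside both intervals. When every stable region within 10 kb of a gained region was counted, not the nearest alone, 195 of 2139 (9.12%, 7.93 to 10.4) overlapped a P12 peak, and within 10 kb of a lost region 217 of 1970 (11.02%, 9.666 to 12.48). For gaps of 1 kb or less, the nearest stable region carried BRG1 for 12 of 182 gained (6.59%, 3.45 to 11.2) and 27 of 180 lost regions (15.0%, 10.1 to 21.1). At gaps of 1 to 2 kb the shares were 3.91% and 6.09%, and at 2 to 5 kb 7.11% and 9.74%. At 5 to 10 kb gained regions had the higher share, 6.37% against 4.38%. The intervals of gained and lost regions overlapped in all 4 gap classes.

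More gained regions had BRG1 on the side of the nearest stable region than on the other side at each of 4 distances, with overlapping intervals. Within 1 kb the counts were 12 (1.734%, 0.8992 to 3.01) towards the stable region and 6 (0.867%, 0.319 to 1.88) away from it, and within 2 kb 25 and 16. Within 5 kb on the side of the nearest stable region, 66 of the 692 (9.538%, 7.453 to 11.97) had a P12 peak, and on the other side 48 (6.94%, 5.16 to 9.09). Within 10 kb the counts were 105 (15.2%, 12.6 to 18.1) and 96 (13.9%, 11.4 to 16.7). For lost regions, the share within 10 kb was 21.1% (17.9 to 24.5) towards the stable region and 12.76% (10.25 to 15.63) away from it. The intervals of the sides did not overlap for lost regions at any of 1, 2, 5 and 10 kb. By the rule, the nearest stable region always lay within 10 kb. On the other side, one lay that close for 371 of the 692 gained and 342 of the 627 lost regions. Since 58.8% of P12 peaks overlapped a stable region, an excess towards the nearest stable region can follow from the choice of regions. Regions overlapping a peak stand outside these counts unless a further peak lay on that side.

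**Figure D4:**
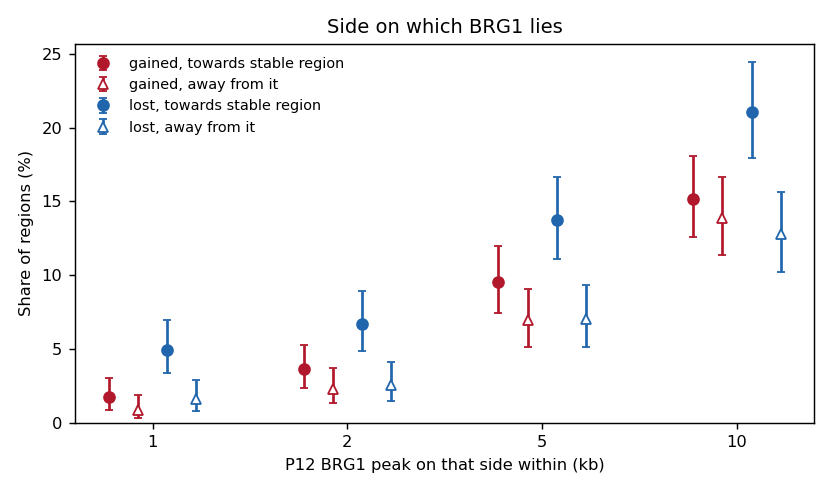
Share of regions (vertical axis, percent) with a P12 BRG1 peak within 1, 2, 5 or 10 kb (horizontal axis) on the side of the nearest stable region (filled circles) or on the other side (open triangles), for gained (red) and lost (blue) regions near stable ones. Bars are exact 95% intervals. At 10 kb gained regions stand at 15.2% and 13.9%, lost regions at 21.1% and 12.8%. The choice of regions places a stable region within 10 kb on the first side always, and on the other side for only part of the regions.

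BRG1 within 10 kb was more frequent where stable acetylation was denser, beside gained and lost regions alike. Since 58.8% of P12 peaks overlapped a stable region, such a rise can follow from the density for regions of any class. Stable regions were not split by density, so the values describe the set and are no trait of it. With 1 to 5 stable regions within 50 kb, 16 of 120 gained regions (13.3%, 7.82 to 20.8) had a P12 peak within 10 kb. With 6 to 11 the count was 40 of 219 (18.3%, 13.4 to 24.0), with 12 to 17 it was 51 of 173 (29.5%, 22.8 to 36.9), and with 18 or more 84 of 180 (46.7%, 39.2 to 54.2). Lost regions in the same 4 classes had 15.1%, 23.0%, 26.3% and 48.1%. For a P12 peak within 1 kb, the shares of gained regions in the 4 classes were 1.67%, 3.20%, 4.05% and 7.22%. Those of lost regions were 8.14%, 4.28%, 2.92% and 15.3%, lower than gained ones in the class of 12 to 17 alone. The intervals of gained and lost regions overlapped in each class.

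The P12 peaks near gained regions had strengths in the range of all P12 peaks. Strength here means the −log10 q deposited by the authors, a measure of significance and not of the amount bound. The nearest peaks of the 191 regions within 10 kb had a median −log10 q of 4.25 (3.94 to 4.82). The median was 4.05 for all P12 peaks on these chromosomes and 4.88 (4.27 to 5.27) beside lost regions. Leaving out overlaps, the nearest peak lay on a stable region for 114 of 179 gained regions (63.7%, 56.2 to 70.7), against 58.8% of all P12 peaks. It was found again at P18 for 30 of 179 (16.8%, 11.6 to 23.0), against 15.9% of all P12 peaks. A P12 peak was nearer than the nearest stable region for 57 of the 692 (8.24%, 6.30 to 10.5).

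The 12 gained regions on a P12 BRG1 peak were split by whether the peak overlapped a stable region, which partly sets their gaps. In 5 of them, the peak also overlapped the nearest stable region, which was 51 to 530 bp away. In the other 7, the peak overlapped no stable region, and the nearest one was 1465 to 7376 bp away. Of the 12 regions, 9 lay wholly inside their peak. The peaks were 12 different ones, 399 to 2838 bp wide, with a −log10 q of 2.46 to 6.18. None overlapped a P18 peak. Of all P12 peaks on these chromosomes, 58.8% overlapped a stable region and 15.9% a P18 peak. Of the 8 lost regions on P12 BRG1, 7 had a peak that overlapped a stable region and 4 had a peak that overlapped a P18 peak.

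Among the peaks off stable acetylation, the strongest covered the right end of chr10:67374607-67374885, 279 bp wide. Its peak, chr10:67374840-67375411, had a −log10 q of 6.18, the highest of the 12, and its stable neighbour was 7.38 kb away. A peak of 4.985 held chr15:26824990-26825064, with acetylation 5.22 kb away, and a peak of 4.77 covered all but the right end of chr13:38244086-38244314, with acetylation 5.30 kb away. chr19:56797408-56797531 lay inside a peak of 2203 bp, and chr2:146664678-146664916 inside one of 1281 bp, with stable regions 5.42 and 6.35 kb away. The weakest peaks of this kind covered chr1:74902112-74902278, at 2.59, and the right part of chr11:72973714-72973922, at 2.46. These were sites where BRG1 was bound in wild type cells, stable acetylation was absent under the peak, and a gain was called in Brg1cKO cells.

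Among the peaks that reached a stable region, the strongest held chr8:125842490-125842617, with a −log10 q of 5.17 and a stable region 0.530 kb away. chr2:164658779-164658800 lay in the narrowest peak, 399 bp, beside a stable region of 21 bp. chr17:48112964-48113166 lay in a break between stable regions 190 bp to its left and 205 bp to its right, under a peak of 2590 bp. chr15:89010936-89010943, only 8 bp wide, lay 180 bp from a stable region of 732 bp, inside the widest peak, 2838 bp. chr11:118216771-118217022, with a peak of 3.01, lay between stable regions 209 and 610 bp away. Each of these 5 sat in acetylated surroundings, with 16 to 40 stable regions within 50 kb, against 4 to 18 for the other 7. The split by stable acetylation under the peak partly sets this difference.

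**Figure D5:**
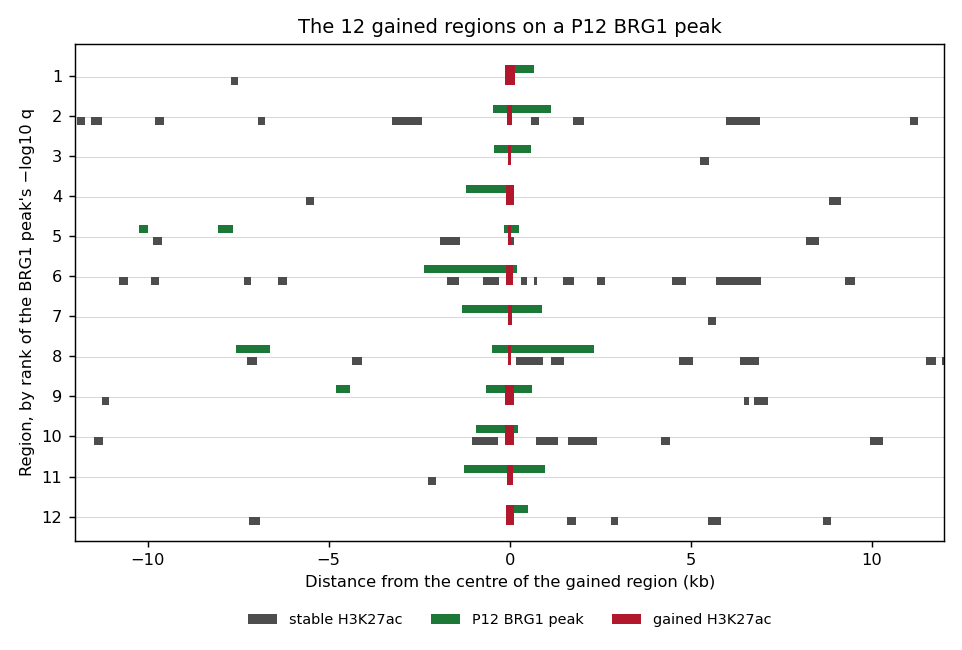
Map of the 12 gained regions that overlap a P12 BRG1 peak, 1 per row, ordered by the −log10 q of the peak (vertical axis), against distance from the region's centre in kb (horizontal axis); gained regions are red, P12 BRG1 peaks green and stable H3K27ac regions grey. Features narrower than 0.08 kb are drawn at that width; rows 2, 5, 6, 8 and 10 have stable acetylation under the central peak and the other 7 rows have none.

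The P18 list held 3020 BRG1 peaks on these chromosomes, against 18336 at P12, and a shorter list leaves fewer regions of any class near a peak, so values at the ages are not compared. None of the 692 regions overlapped a P18 peak (exact 95% interval 0 to 0.5317%), where the limit from 3 counts is 0.4335%. The share was 1.77% in stable regions, which were wider. Within 10 kb of a P18 peak lay 36 (5.202%, 3.67 to 7.13) gained and 50 of 627 lost regions (7.974%, 5.977 to 10.38), against 8.521% of stable regions. With P18 peaks of −log10 q of at least 3, which kept 676 peaks, these shares were 1.734% (0.8992 to 3.01), 2.073% (1.108 to 3.519) and 1.92%, so the interval for gained regions then held the share of stable regions. Of 627 lost regions near stable ones, 3 overlapped a P18 peak (0.478%, 0.0988 to 1.39). The only gained region within 1 kb of a P18 peak was chr1:13362273-13362466, named after its value was seen. It lay 0.182 kb from a stable region that carried BRG1, 0.134 kb from a P12 peak of −log10 q 7.84 and 0.426 kb from the P18 peak. H3K27ac was mapped at P12 alone, so the P18 values compare BRG1 with acetylation at the earlier age.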

How the data were processed

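The members and the comparison sets were chosen with earlier results of these data known. 5 region lists were used: H3K27ac regions common to both genotypes, gained or lost in Brg1cKO, and BRG1 peaks at P12 and P18. Bowtie, Bowtie2, SAMtools, Picard, deepTools 2.5.2 and MACS2 were used on build mm9, per the submitters' processing notes; the step each served is not stated there. The sources do not say how replicates were combined. BRG1 strength was the −log10 q deposited by the authors; peak names state a threshold of 0.05. The score deposited by the authors for H3K27ac regions has no stated scale, and neither it nor the deposited BRG1 score was used.

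Gaps were edge to edge and overlap was at least 1 bp, computed with Python 3.11.15, pandas 2.3.3 and numpy 2.4.6. The functions were tested on 1500 simulated regions, with 0 disagreements with direct calculation. Shares have Clopper-Pearson, medians order-statistic and densities Poisson 95% intervals (scipy 1.17.1). Densities divide regions, placed by centre, by the sequence between stable regions at that distance. H2AK119ub1 and input libraries were not analysed here.

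Named were regions on BRG1, the 5 widest, the 5 with the smallest gap, the 3 on each side of the limit, the 3 tightest runs of 3, the 3 nearest a lost region and the 1 with most stable regions within 50 kb. The planned naming of 10 regions on BRG1 was extended to all 12.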

Additional observations from a re-analysis of the deposited data

How the results depend on the processing

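92 values under alternatives were listed, and 76 stayed within the 95% interval of the value reported. Of the 92, 20 are the lowest or highest value with 1 autosome left out. Those 20 share most regions with the set, so they could move little. With 5 kb as the limit, the set held 56.0% of gained regions, 62.1% had stable regions on both sides and the median gap was 1652 bp. With 20 kb these values were 85.3%, 45.5% and 3173 bp, and 23.8% lay within 10 kb of a P12 peak. Both shifts of the gap follow from the limit. Counting regions of at least 50 bp gave a median width of 174 bp. With stable regions of at least 300 bp, the set held 48.6% of gained regions, 33.8% lay within 10 kb of a P12 peak, the nearest stable region carried BRG1 for 13.8%, 33.2% had stable regions on both sides and the median gap was 3282 bp. With BRG1 peaks of −log10 q of at least 3, 21.1% lay within 10 kb of a P12 and 1.73% of a P18 peak. Distances between centres gave a median gap of 2643 bp. Merging within 1 kb, overlap of at least 50%, leaving out each autosome, and adding X, an alternative chosen after seeing the data, moved no value outside its interval. No paired analysis was possible because each class was deposited as 1 list with no value per library; for the same reason no replicate could be left out. Depth is not known, so a region missing from a list may lack reads.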

Other observations

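On the X chromosome, which was left out of the set, 14 of 28 gained regions lay within 10 kb of a stable region (exact 95% interval of the share 30.65 to 69.35%).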
